A study of Homo sapiens with 4 samples.

Results

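The D cyclins, their kinases CDK4 and CDK6, a group of CDK inhibitors and the retinoblastoma gene RB1 were followed in 2 human colorectal cancer cell lines, HCT116 and RKO. The 10 genes were CCND1, CCND2, CCND3, CDK4, CDK6, CDKN2A, CDKN2B, CDKN2C, CDKN1B and RB1, taken by symbol from 60612 genes in each deposited table, where each symbol matched 1 row. The 4 groups, of 1 library each, were HCT116 with AVEN overexpression (OE), HCT116 wildtype for AVEN (WT), RKO OE and RKO WT. AVEN encodes an inhibitor of caspase activation. How AVEN was overexpressed, whether WT cells carried a control construct, and whether OE cells were a clone or a pool: the sources used here do not give these points. Poly(A)-selected RNA was sequenced as paired ends, and levels are the authors' FPKM (fragments scaled to transcript length and library size), which are per length and so can be compared between genes.

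Cyclin D binds CDK4 or CDK6, and the complex phosphorylates the RB1 protein, which then releases E2F transcription factors so that cells pass from G1 into S phase. The INK4 inhibitors, encoded by CDKN2A, CDKN2B, CDKN2C and CDKN2D, bind CDK4 and CDK6 directly. The CIP/KIP inhibitors, among them p27 from CDKN1B and p21 from CDKN1A, bind cyclin-CDK complexes and restrain CDK2. In colorectal cancer CCND1 is known as a target of WNT signalling, and CDKN2A is often silenced by promoter methylation.

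Each group is 1 library, so differences of OE and WT inside a line are differences of those libraries, unreplicated and untested. Brackets after a fold hold a 95% counting interval from estimated fragments, which covers counting error only. By the lowest FPKM values, 1 FPKM on 1 kilobase stood for 18.6 to 20.8 fragments per library. AVEN itself stood at 2.96 FPKM in HCT116 OE against 1.53 in HCT116 WT, and at 4.43 in RKO OE against 1.34 in RKO WT. In HCT116 that is 1.94-fold (1.16 to 3.41), short of 2-fold and from about 48 and 22 fragments. In RKO it is 3.32-fold (2.04 to 5.80). Mitochondrial genes made up 44.7% to 45.6% of summed FPKM in HCT116 and 30.3% to 32.8% in RKO, and the OE difference in RKO ran with transcript GC content (Spearman rho 0.535 across 10971 genes, against -0.113 in HCT116). Of 7 colorectal epithelial markers, 6 had a mean of at least 1 FPKM in HCT116 and 4 in RKO. In RKO, EPCAM stood at 2.02 (OE) and 3.08 FPKM (WT), while KRT19, CDH1 and VIL1 were below 0.1 FPKM in both libraries. Markers of fibroblasts, endothelium and blood cells summed to at most 2.68 FPKM per list and library, except that the macrophage marker CD68 stood at 195 (OE) and 197 FPKM (WT) in RKO, where PTPRC and CD3E rested on at most 1 fragment. Some epithelial markers differed with OE, CDH1 in HCT116 (17.5 FPKM in OE and 8.25 in WT) and KRT18 in RKO (71.8 in OE and 37.4 in WT), and their part in the results was not tested.

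RefSeq promoter windows on GRCh38.p14, each from 250 bases before a transcript start to 50 after it, were found for 8 of the 10 genes, in 14 windows. CDK4 is shown because it had the largest difference of the group in RKO, and CDK6 because it is the paralog whose level differed the other way. The CDKN2A windows are shown because this gene has separate starts for ARF and for p16, which a gene-level FPKM does not separate. All 4 lie on the minus strand and are printed 5′ to 3′ along the gene, at chr12:57752261-57752560 for CDK4, chr7:92836524-92836823 for CDK6, chr9:21995275-21995574 for the CDKN2A start of ARF and chr9:21974808-21975107 for that of p16. Capitals mark E-boxes (CACGTG) and GC boxes (GGGCGG, or CCGCCC on the other strand).
CDK4: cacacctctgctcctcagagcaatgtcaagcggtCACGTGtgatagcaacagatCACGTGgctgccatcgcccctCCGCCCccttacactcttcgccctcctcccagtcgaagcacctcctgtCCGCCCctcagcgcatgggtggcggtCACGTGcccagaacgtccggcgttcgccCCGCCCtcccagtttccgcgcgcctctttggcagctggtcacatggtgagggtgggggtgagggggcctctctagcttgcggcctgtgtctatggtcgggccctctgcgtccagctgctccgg
CDK6: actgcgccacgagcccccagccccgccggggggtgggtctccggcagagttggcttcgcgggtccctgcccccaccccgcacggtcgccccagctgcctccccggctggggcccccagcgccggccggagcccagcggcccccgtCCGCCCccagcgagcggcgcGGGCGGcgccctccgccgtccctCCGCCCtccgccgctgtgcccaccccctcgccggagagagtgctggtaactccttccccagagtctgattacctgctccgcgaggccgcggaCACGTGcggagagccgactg
CDKN2A, ARF start: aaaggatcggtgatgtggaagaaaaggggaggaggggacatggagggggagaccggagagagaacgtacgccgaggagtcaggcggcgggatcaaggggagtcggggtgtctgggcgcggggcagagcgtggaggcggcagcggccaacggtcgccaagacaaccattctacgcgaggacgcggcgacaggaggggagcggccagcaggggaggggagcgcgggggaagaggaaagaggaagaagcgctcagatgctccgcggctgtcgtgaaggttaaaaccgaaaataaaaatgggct
CDKN2A, p16 start: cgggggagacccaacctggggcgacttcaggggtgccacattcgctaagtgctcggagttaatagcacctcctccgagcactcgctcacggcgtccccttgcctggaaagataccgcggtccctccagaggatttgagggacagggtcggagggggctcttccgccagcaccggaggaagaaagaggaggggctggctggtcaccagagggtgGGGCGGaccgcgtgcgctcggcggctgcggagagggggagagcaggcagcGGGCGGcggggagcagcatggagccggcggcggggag

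The CDK4 window held 3 E-boxes and 3 GC boxes, and the CDK6 window 1 E-box and 3 GC boxes. Of 35116 RefSeq windows of the same length, 7.26% held at least 1 E-box, 0.094% held 3 or more, and 45.0% held a GC box, both strands and overlapping matches counted. The ARF window held neither motif, and the p16 window held 2 GC boxes and no E-box. CpG dinucleotides numbered 28 in the ARF window and 26 in the p16 window, against a median of 14 over all windows. The E2F forms TTTGGCGC and TTTCCCGC and the TCF form CTTTGAT matched no window of the 8 genes searched, and the FOXO form GTAAACA matched 1 gene, CCND3. Over all windows these forms matched 0.652%, 1.63%, 2.62% and 3.42%. CCND1 and CCND2 were not searched, and RB1 was searched only at a start inside the gene (window at chr13:48476200-48476499). A match is a description of letters and says nothing of binding.

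The widest spreads within the group were those of a D cyclin and an INK4 gene, and both lay between the lines. CCND2, the D cyclin prominent in lymphoid and gonadal cells, spanned 4.01 on the log2(FPKM + 1) scale over the 4 libraries, and CDKN2A spanned 3.31. The narrowest were CDKN2C (0.45) and CDK6 (0.47). The tables were deposited per line and may have been normalized separately, so levels set across lines carry no test. FPKM is scaled to the whole library, and mitochondrial genes took a larger share of it in HCT116 than in RKO. Folds between lines were not recomputed without mitochondrial genes, and their counting intervals do not cover this difference in scaling. In bulk RNA, fewer cells with a transcript and less of it per cell cannot be told apart.

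**Figure D1:**
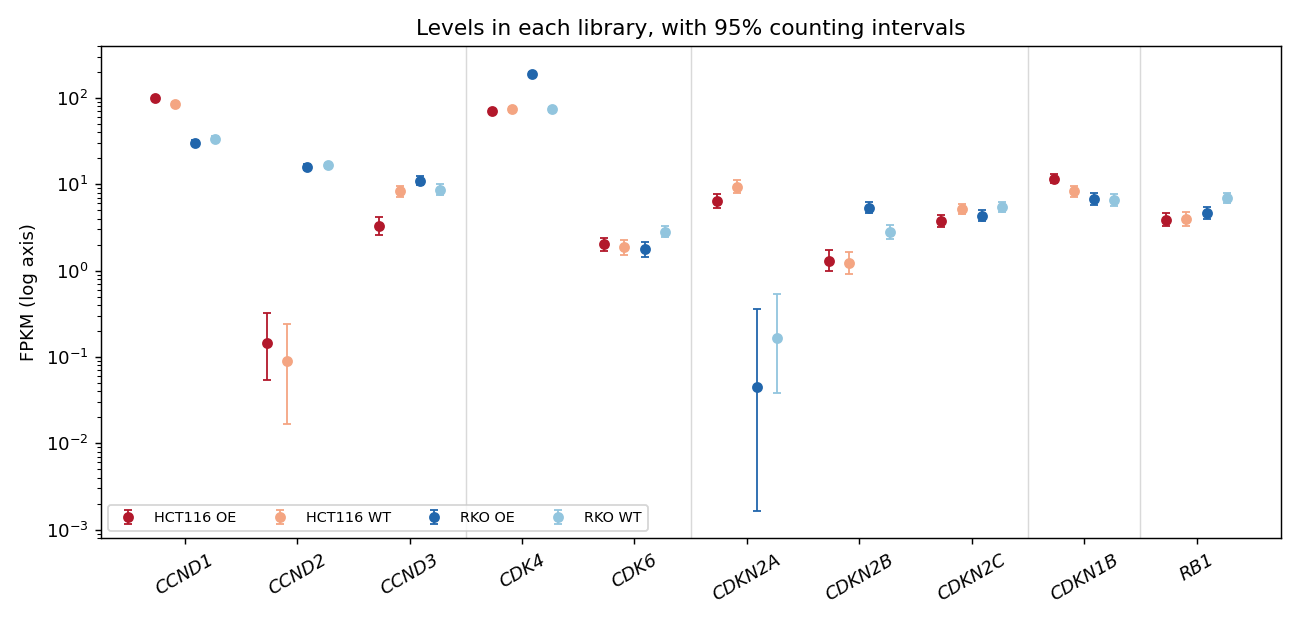
FPKM on a log axis for each of the 10 genes in HCT116 OE, HCT116 WT, RKO OE and RKO WT, with vertical bars for 95% counting intervals. CCND2 lies below 0.2 FPKM in HCT116 and near 16 in RKO, CDKN2A lies below 0.2 in RKO, and CDK4 in RKO OE stands at 190 FPKM.

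Among the D cyclins, CCND1 stood at 98.9 FPKM in HCT116 OE, 85.9 in HCT116 WT, 30.4 in RKO OE and 33.6 in RKO WT. CCND1 was thus higher in HCT116 than in RKO, 3.26-fold between the OE libraries (2.998 to 3.55) and 2.56-fold between the WT libraries (2.36 to 2.78). CCND2 stood at 0.146 and 0.0899 FPKM in HCT116 OE and WT, from about 6 and 3 fragments, and at 15.7 and 16.5 in RKO OE and WT. A count of 3 fragments corresponds to 0.0732 and 0.0815 FPKM of CCND2 in HCT116 OE and WT, so the HCT116 values lie near that limit. CCND3 stood at 3.28 FPKM in HCT116 OE, 8.27 in HCT116 WT, 11.04 in RKO OE and 8.66 in RKO WT, with HCT116 OE the low library of the 4.

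CCND1 made up 96.7% of summed D cyclin FPKM in HCT116 OE (approximate binomial interval 95.9 to 97.3) and 91.1% in HCT116 WT (89.9 to 92.3). In RKO its share was 53.1% in OE (50.6 to 55.6) and 57.1% in WT (54.7 to 59.5). CCND2 contributed 27.5% and 28.1% in RKO OE and WT. CCND3 contributed 19.3% in RKO OE (17.4 to 21.4) and 14.7% in RKO WT (13.1 to 16.5), against 3.20% (2.55 to 3.96) and 8.78% (7.58 to 10.0) in HCT116 OE and WT. Summed D cyclin FPKM was 102 in HCT116 OE, 94.2 in HCT116 WT, 57.1 in RKO OE and 58.7 in RKO WT.

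CDK4 stood far above CDK6 in every library. CDK4 had 70.6 and 73.7 FPKM in HCT116 OE and WT, and 190 and 73.6 FPKM in RKO OE and WT. In FPKM as deposited, the WT libraries of the 2 lines did not differ in CDK4 beyond counting error (HCT116 over RKO 1.001, 0.926 to 1.08). CDK6 had 2.01 and 1.87 FPKM in HCT116 OE and WT, and 1.78 and 2.83 FPKM in RKO OE and WT. The ratio of CDK4 to CDK6 FPKM was 35.1 and 39.3 in HCT116 OE and WT, and 107 and 26.0 in RKO OE and WT. CDK4 FPKM divided by summed D cyclin FPKM was 0.690 in HCT116 OE, 0.782 in HCT116 WT, 3.33 in RKO OE and 1.25 in RKO WT.

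**Figure D2:**
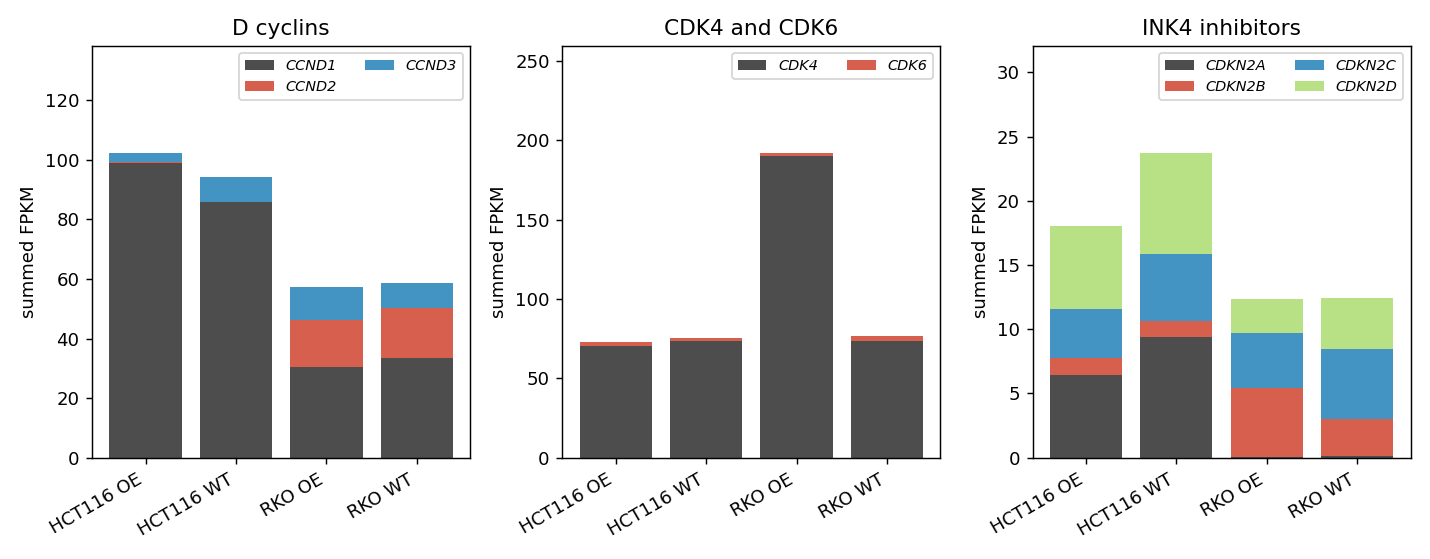
Stacked bars of summed FPKM for the D cyclins, for CDK4 and CDK6, and for the INK4 inhibitors (with CDKN2D, which is outside the 10 genes) in the 4 libraries. CCND1 fills 96.7% of the D cyclin bar in HCT116 OE and 53.1% in RKO OE, and CDKN2A is nearly absent from the RKO bars.

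Among the INK4 genes, CDKN2A was higher in HCT116 and CDKN2B higher in RKO. CDKN2A, which encodes p16 and ARF, stood at 6.48 and 9.39 FPKM in HCT116 OE and WT, and at 0.0447 and 0.164 FPKM in RKO OE and WT, from about 1 and 3 fragments. Those RKO values are at or below the 0.193 and 0.185 FPKM that 3 fragments correspond to, so no comparison of OE with WT is read for CDKN2A in RKO. Between the WT libraries CDKN2A was 57.2-fold higher in HCT116 (16.9 to 248). CDKN2B, which encodes p15, had 1.31 and 1.24 FPKM in HCT116 OE and WT, and 5.36 and 2.84 in RKO OE and WT, the RKO libraries being the higher pair. CDKN2C, which encodes p18, lay between 3.75 and 5.50 FPKM in all 4 libraries.

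CDKN2A and CDKN2B lie beside each other on chromosome 9 (21967753 to 21995301 and 22002903 to 22009363 in the GENCODE annotation of GRCh38, minus strand). Their neighbour MTAP, a methionine salvage enzyme gene, had 4.94 and 4.03 FPKM in HCT116 OE and WT, and 9.22 and 12.1 in RKO OE and WT. The antisense gene CDKN2B-AS1 stayed at or below 0.0331 FPKM in the 4 libraries, and DMRTA1 at or below 0.0455. In FPKM as deposited, MTAP and CDKN2B were thus higher in RKO than in HCT116, unlike CDKN2A, and the reason was not tested.

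CDKN1B had 11.6 and 8.33 FPKM in HCT116 OE and WT, and 6.82 and 6.55 FPKM in RKO OE and WT. RB1 had 3.89 and 3.96 FPKM in HCT116 OE and WT, and 4.66 and 7.02 FPKM in RKO OE and WT. RB1 was highest in RKO WT, 1.77-fold above HCT116 WT in that library (1.41 to 2.22).

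Ordered by FPKM, CCND1 and CDK4 led in HCT116 and CDK4 and CCND1 led in RKO, and these 2 ranks were separated by more than counting error in each library. In HCT116 WT, CDKN2A, CDKN1B and CCND3 followed at 9.39, 8.33 and 8.27 FPKM with overlapping intervals between neighbours. In HCT116 OE, CDKN1B and CDKN2A came next without overlap, and CCND3 had the seventh place, where it overlapped CDKN2C but not CDK6. In RKO, CCND2 and CCND3 held the third and the fourth places in both libraries. From CDKN1B through CDKN2B and RB1 to CDKN2C, neighbours in RKO OE overlapped.

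Genes were sought whose centred log2(FPKM + 1) profile over the 4 libraries lay nearest to those of CCND2 and CDKN2A, in a pool of 5571 protein-coding genes averaging 5 FPKM or more. For CCND2 these were CD274, JUN and LAMB3, at Euclidean distances of 0.20, 0.22 and 0.28. CD274, which encodes PD-L1, had 0.507 and 0.4997 FPKM in HCT116 OE and WT, and 24.7 and 21.4 in RKO OE and WT. For CDKN2A they were ADIRF, DCBLD2 and PRAF2, at distances of 0.12, 0.16 and 0.25. ADIRF had 107 and 136 FPKM in HCT116 OE and WT, and 14.2 and 15.9 in RKO OE and WT. Such likeness rests on 4 libraries and mostly on the contrast between lines.

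Within HCT116, OE was set against WT to see which of these transcripts differed with AVEN overexpression. CCND3 was lower in OE, at 3.28 against 8.27 FPKM, which is 2.52-fold (1.90 to 3.36). CDKN1B was 1.40-fold higher (1.153 to 1.70), CCND1 1.152-fold higher (1.09 to 1.22), CDKN2A 1.45-fold lower (1.12 to 1.89) and CDKN2C 1.39-fold lower (1.12 to 1.72). The folds of CDK4 (0.959, 0.885 to 1.04), CDK6 (1.07, 0.818 to 1.41), CDKN2B (1.06, 0.697 to 1.61) and RB1 (0.983, 0.759 to 1.26) had intervals that include 1.

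On the log2((OE + 1)/(WT + 1)) scale, 9 of the 10 genes averaged 1 FPKM or more in HCT116, the exception being CCND2. CCND3 alone was at least 2-fold different, at -1.12, and 2.05% of 11333 genes were at least 2-fold different in either direction (1.02% lower). A larger absolute difference was found in 185 of those 11333 genes. Differences of the others were between -0.48 (CDKN2A) and 0.44 (CDKN1B), with 4 of the 9 above 0. Their median was -0.02, against 0.01 over all genes. Intervals excluded a fold of 1 for 5 of the 9, while 31.1% of 11305 genes did so.

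In RKO, CDK4 had the largest difference of the group. CDK4 was 2.59-fold higher in OE (2.43 to 2.76), at 190 against 73.6 FPKM, from about 3234 and 1302 fragments. CDKN2B was 1.89-fold higher (1.496 to 2.40), and CCND3 1.28-fold higher (1.05 to 1.56). RB1 was 1.51-fold lower (1.22 to 1.86), CDK6 1.60-fold lower (1.25 to 2.07) and CDKN2C 1.27-fold lower (1.04 to 1.55). The folds of CCND1 (0.904, 0.817 to 1.0), CCND2 (0.952, 0.851 to 1.06) and CDKN1B (1.04, 0.828 to 1.31) had intervals that reach 1.

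On the log2 scale CDK4 differed by 1.36 in RKO, and 171 of 11007 genes had a larger absolute difference. It alone among the 9 genes averaging 1 FPKM or more was at least 2-fold different, where 3.25% of 11007 genes were (1.3% higher and 1.95% lower). CDKN2B followed at 0.73, and the lowest was RB1 at -0.50. The median of the 9 was -0.07 and that over all genes -0.09. Intervals excluded a fold of 1 for 6 of the 9, against 51.4% of 10971 genes.

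After correction for GC content and length, CDK4 stood at 1.23 and CDKN2B at 0.66 in RKO. CCND3 stood at 0.16 after correction and 0.32 before it, and CDKN1B at 0.26 and 0.05. RB1, whose transcripts have the lowest GC content of the group (42.3%), stood at -0.14 after correction, and CCND1, with the highest (61.9%), at -0.30. The CDK4 exons overlap those of TSPAN31 on the opposite strand, and the sources used here do not say if strand was kept. TSPAN31 had 3.19 FPKM in RKO OE and 2.63 in RKO WT, and with both genes' FPKM summed the difference was 1.33. CDK6 exons overlap those of CDK6-AS1 on the opposite strand, which had 0.521 FPKM in RKO OE and 0.381 in RKO WT. With CDK6 and CDK6-AS1 summed, the RKO difference was -0.35, against -0.47 for CDK6 alone.

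**Figure D3:**
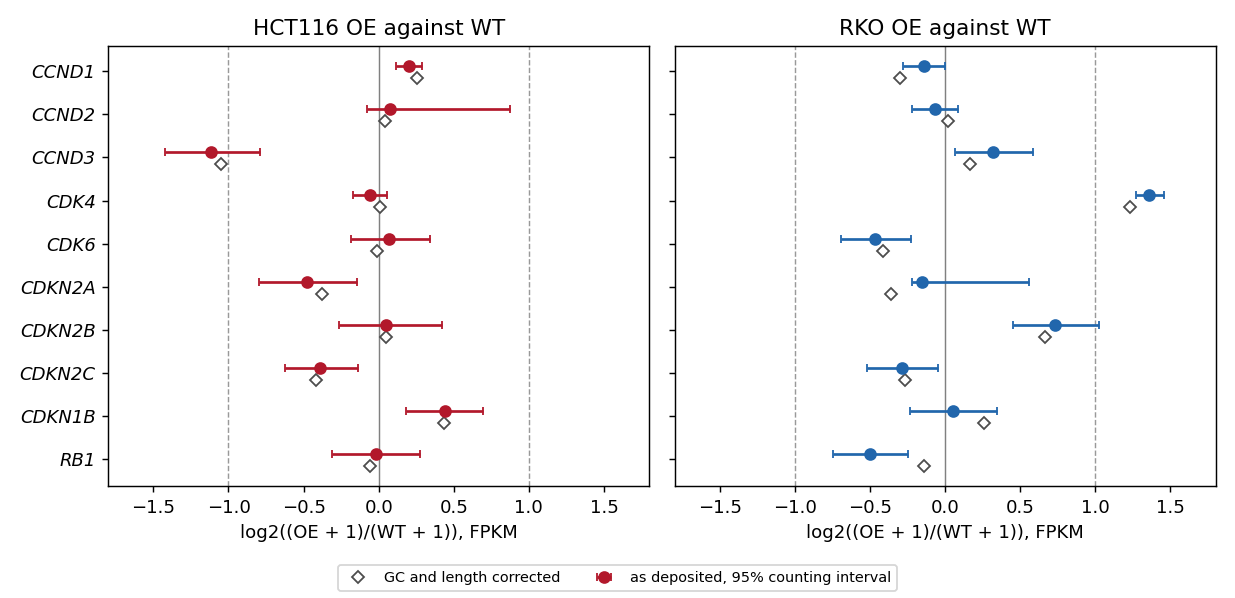
Log2((OE + 1)/(WT + 1)) for each gene in HCT116 and RKO, as deposited with 95% counting intervals (filled) and after GC and length correction (open), with dashed lines at 2-fold. CCND3 in HCT116 and CDK4 in RKO are the points beyond the dashed lines, at -1.12 and 1.36.

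**Figure D4:**
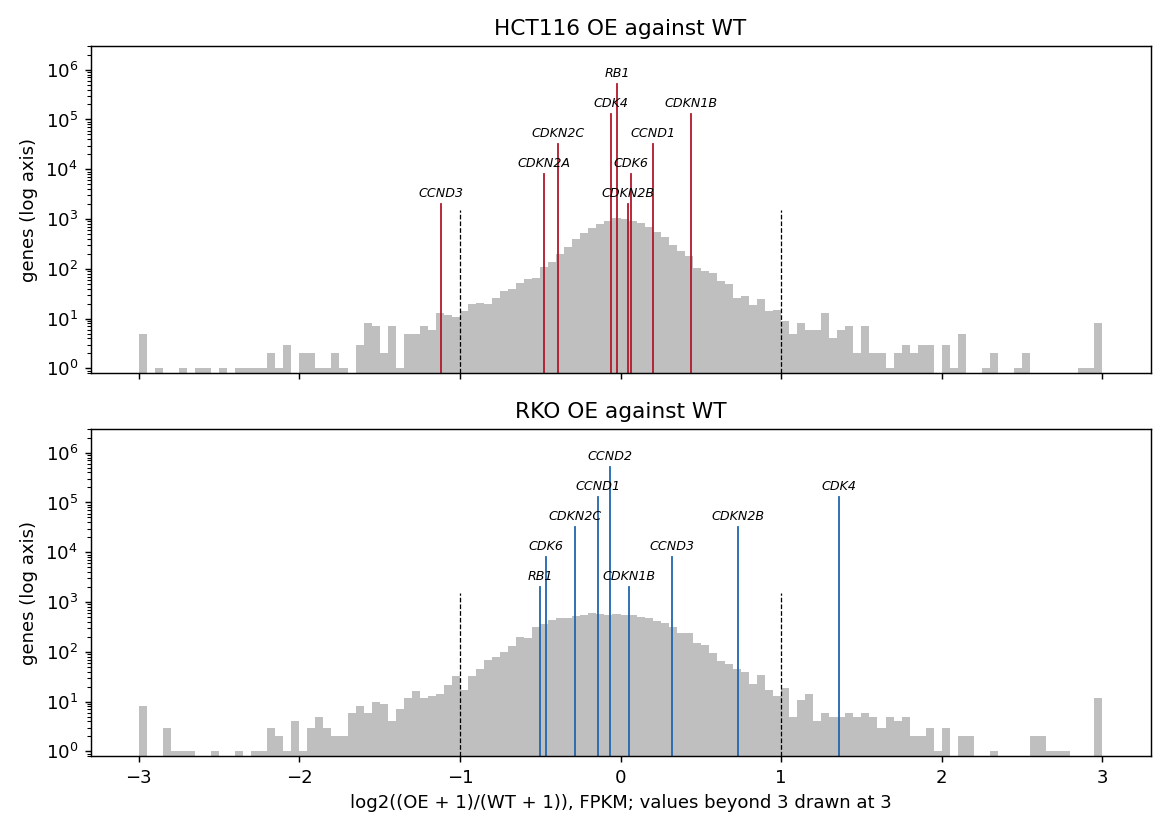
Histogram of log2((OE + 1)/(WT + 1)) over 11333 genes in HCT116 and 11007 in RKO (log axis for gene number), with a line for each of the 9 measured genes of the group and dashed lines at 2-fold. Line height has no meaning. Most of the group lies within the bulk of all genes, with CCND3 in the lower tail in HCT116 and CDK4 in the upper tail in RKO.

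CCND3 and CDK4 were past 2-fold in 1 line each. CCND3 differed by -1.12 in HCT116 and 0.32 in RKO, a gap of -1.43, and CDK4 by -0.06 and 1.36, a gap of -1.42. Larger gaps were found in 2.29% and 2.33% of 9887 genes. Each line has 1 library per genotype, so the gap itself was not tested. Across the 10 genes, CDKN1B and CDKN2B were higher in OE in both lines, CDKN2A, CDKN2C and RB1 were lower in both, and 5 had opposite signs. For CDKN2A in RKO and CCND2 in HCT116 these signs rest on a few fragments. Of the 5 genes with the same sign in both lines, CDKN2C alone had intervals that leave out 1 in both. The intervals given above include 1 for CDKN2B and RB1 in HCT116 and for CDKN1B in RKO, and CDKN2B in HCT116 stood at -0.02 after quantile normalization. Among the 5 with opposite signs, CDK4 and CDK6 in HCT116 and CCND2 in RKO crossed 0 after GC and length correction.

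Taking the lines as replicates, limma with line as a block was fitted to 11525 genes. None of the 10 genes passed a Benjamini-Hochberg adjusted p of 0.05, all standing at 1, where 0.121% of genes passed. Genes entered by their mean over the 4 libraries. CCND2 thus entered through RKO and CDKN2A through HCT116, each with only a few fragments in the other line. At an unadjusted p under 0.05 there was 1, CDK4, where 3.51% of all genes were. CDK4 had a log2 difference of 0.65 (SE 0.29), with unadjusted p = 0.0433 and adjusted p = 1 by limma, and it was higher in OE in 1 of 2 lines. The other differences were between -0.40 (CCND3, SE 0.31) and 0.39 (CDKN2B, SE 0.26). AVEN, the overexpressed gene, did not pass either, at a log2 difference of 0.93 (SE 0.25) and a limma adjusted p of 0.489. This fit has 1 residual degree of freedom, against a median of 12.0 from the prior variance that limma takes over all genes. Its SEs and p-values thus rest mostly on that shared variance rather than on a gene's own spread between lines. The shared variance comes from these libraries only, and whether cultures were separate is unstated in the labels.

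In the authors' deposited table, CCND3 was marked as significant in HCT116 (p = 0.0414, q = 1) and CDK4 in RKO (p = 0.0246, q = 1). These were the only marks among the 10 genes, and 0.419% and 0.563% of all 60612 genes were marked in HCT116 and RKO, or 1.5% and 2.2% of those averaging 1 FPKM or more.

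Other CDK inhibitors were followed as a list of CDKN1A, CDKN1C and CDKN2D. CDKN1A, a p53 target, had 81.7 and 85.3 FPKM in HCT116 OE and WT, and 80.5 and 23.6 in RKO OE and WT, with RKO WT the low library. Its RKO difference was 1.73 on the log2 scale, or 3.40-fold (3.12 to 3.71), and it was the only gene of the list at least 2-fold different. The CDK4 difference in RKO thus stood beside a higher level of an inhibitor of cyclin-CDK complexes in the same library. CDKN2D, the remaining INK4 gene, had 6.50 and 7.89 FPKM in HCT116 OE and WT, and 2.62 and 3.92 in RKO OE and WT. CDKN1C had 4.25 and 3.63 FPKM in HCT116 OE and WT, and 2.16 and 1.60 in RKO OE and WT. Summed over the 4 INK4 genes, FPKM was 18.0 and 23.7 in HCT116 OE and WT, and 12.4 in both RKO libraries.

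The RB1 relatives RBL1 and RBL2, which encode p107 and p130, were not 2-fold different in either line. RBL2 had 4.44 and 2.47 FPKM in HCT116 OE and WT, and 3.05 and 5.17 in RKO OE and WT. In RKO the log2 differences were -0.61 for RBL2 and -0.49 for RBL1, and -0.22 and -0.16 after GC and length correction. Among 10 E2F and DP genes, E2F6, a repressive E2F, was at least 2-fold lower in HCT116 OE (1.82 against 5.22 FPKM) and 0 were 2-fold different in RKO. E2F4, a repressive partner of the pocket proteins, had 20.6 and 37.3 FPKM in HCT116 OE and WT, and 39.5 and 26.3 in RKO OE and WT. TFDP2, an E2F partner, was 1.74-fold higher in HCT116 OE (1.32 to 2.28). The list medians were -0.15 in HCT116 and -0.03 in RKO, against 0.01 and -0.09 over all genes. After GC and length correction the RKO list median was 0.16, against 0.004 over all genes. The sign of the RKO list median thus depends on that correction, while it lay above the median of all genes with and without it.

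Downstream, 16 of 18 targets of RB and E2F were below 0 in HCT116, with a median of -0.21, and 7 of 18 were below 0 in RKO, with a median of 0.03. Over all genes 48.6% were below 0 in HCT116 (median 0.01) and 59.3% in RKO (median -0.09). RRM2, a ribonucleotide reductase subunit, was the only target at least 2-fold different, at 17.3 against 42.1 FPKM in HCT116 OE and WT. MCM5, of the replicative helicase, had 27.5 and 38.9 FPKM in HCT116 OE and WT, and 29.1 and 20.5 in RKO OE and WT. MCM2 had 62.0 and 41.1 FPKM in RKO OE and WT. After GC and length correction, 3 of 18 targets in RKO (median 0.18) and 16 of 18 in HCT116 (median -0.20) were below 0, where 49.3% and 50.6% of all genes were.

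Cyclin E and A genes with CDK2 and CDC25A held no 2-fold difference in either line. The lists share genes: CCNE1, CCNE2 and CDC25A, and E2F1 of the E2F list, were also counted among the RB and E2F targets. CCNE1, the cyclin that acts with CDK2 after RB1 release, had 12.4 and 16.8 FPKM in HCT116 OE and WT, and 16.0 and 16.4 in RKO OE and WT. CDC25A, the phosphatase that activates CDK2, had 7.90 and 10.5 FPKM in HCT116 OE and WT, and 19.6 and 17.1 in RKO OE and WT. The CDK-activating kinase genes CDK7, CCNH and MNAT1 ranged from -0.04 to 0.16 in HCT116 and from -0.33 to -0.21 in RKO, where their median was 0.03 after GC and length correction. CCNH shares exons with RASA1 on the opposite strand, and the RKO difference of their summed FPKM was -0.91.

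Among genes that govern D cyclin and p27 turnover, 0 of 10 measured in HCT116 and 0 of 9 in RKO were 2-fold different. CKS1B, the cofactor by which SKP2 recognises p27, had 47.5 and 63.1 FPKM in HCT116 OE and WT. FBXO31, a ubiquitin ligase subunit for cyclin D1, had 12.3 and 7.998 FPKM in RKO OE and WT, and its exons overlap other genes, among them MAP1LC3B on the opposite strand (29.2 and 34.6 FPKM). With FBXO31 and MAP1LC3B summed, the RKO difference was -0.04 on the log2 scale, against 0.56 for FBXO31 alone.

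Upstream, MYC was the only listed regulator at least 2-fold different in HCT116, at 5.57 FPKM in OE against 39.6 in WT. MYC is known as an activator of CDK4. CDK4 in the same HCT116 libraries had 70.6 (OE) and 73.7 FPKM (WT). In RKO, MYC had 10.6 FPKM in OE and 8.08 in WT, 1.31-fold higher (1.10 to 1.56), beside the 2.59-fold difference of CDK4. The part of MYC in the CDK4 level was not tested. FOXO3, a transcription factor that activates CDKN1B, had 4.88 and 3.64 FPKM in HCT116 OE and WT, and TCF7L2, a WNT effector, had 2.65 and 1.28 FPKM in RKO OE and WT.

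Polycomb genes that repress the INK4 locus had a median of -0.01 in HCT116 over 7 genes and -0.39 in RKO, where 7 of 7 were below 0 beside 59.3% of all genes. After GC and length correction the RKO median was -0.11, and 5 of 7 were below 0 beside 49.3% of all genes. BMI1, of Polycomb complex 1, was the only one at least 2-fold different, at 4.07 FPKM in RKO OE against 14.0 in RKO WT, 3.43-fold lower (2.63 to 4.55). It shares exons with the readthrough gene COMMD3-BMI1, which was listed at 0.0001 FPKM in all 4 libraries. In the same RKO libraries CDKN2B had 5.36 (OE) and 2.84 FPKM (WT), and the part of BMI1 in that difference was not tested. In HCT116 OE and WT, BMI1 had 10.1 and 8.61 FPKM beside CDKN2B at 1.31 and 1.24. No gene of these pathway lists passed the limma threshold across lines.

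**Figure D5:**
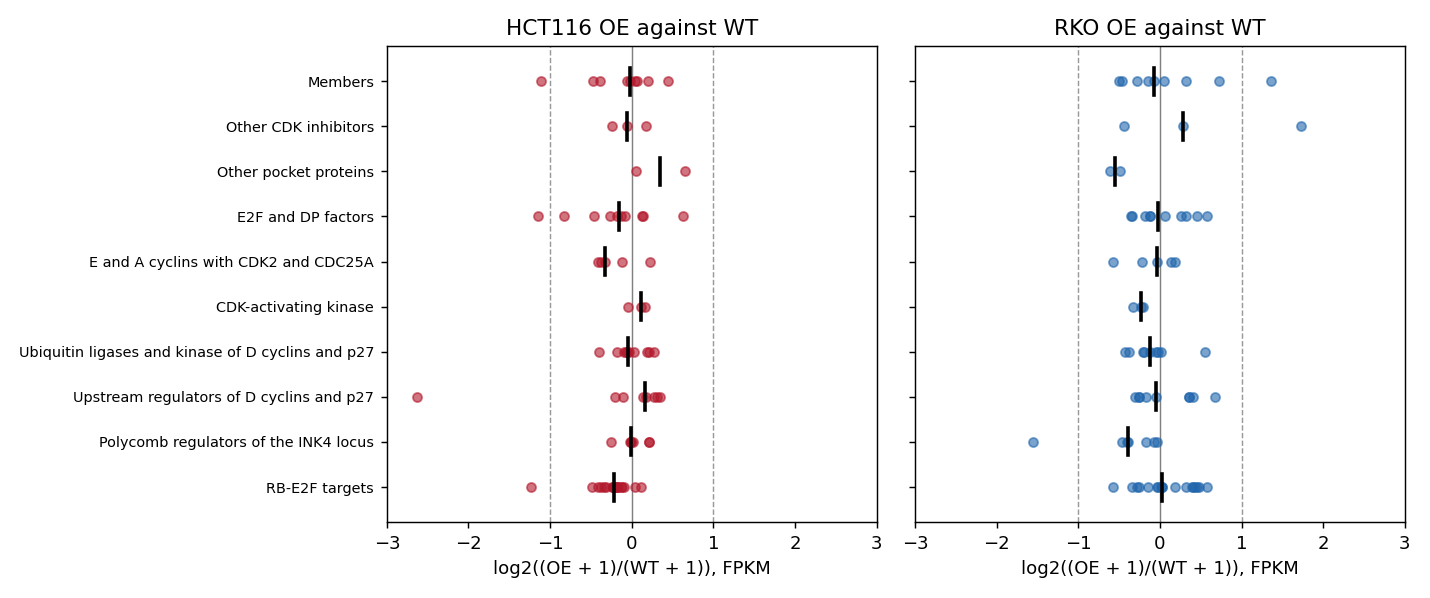
Log2((OE + 1)/(WT + 1)) in HCT116 and RKO for the 10 genes (first row) and 9 pathway lists, 1 point per gene averaging 1 FPKM or more, black bars for medians and dashed lines at 2-fold. MYC at -2.63 in HCT116, and CDKN1A at 1.73, CDK4 at 1.36 and BMI1 at -1.56 in RKO, are the points farthest from 0.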

How the data were processed

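Poly(A)-selected RNA of 4 libraries, grouped by sample title, was read from both ends, per the labels' protocols. The authors deposited FPKM per gene, with no signal set to 0.0001, in a table per line, and their own fold (ratio), log2 fold, p-value and q-value, by a test the sources used here do not name. Bowtie 0.12.2, HISAT2 2.0 and StringTie 1.3.0 stand in the submitters' processing notes with a mouse build, while the identifiers are human, so the alignment build is unsettled.

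FPKM holds no counts, so the commonest low value of single-exon genes of at least 400 nucleotides was taken as 1 fragment. It is a rough estimate: 36.7% to 38.4% of values up to 5 fragments lay within 0.02 of a whole or a 0.5 step, where evenly spread values would give 8%. Fragments used the mean transcript length in GENCODE release 29, found for 58394 of 60612 genes. Where a longer transcript carries the signal, intervals are narrower than given. Intervals are at 95% and cover counting error only, as copies of a fragment cannot be told apart. Those of folds are exact (Clopper-Pearson, given the summed fragments of both libraries), and those of levels are exact Poisson intervals, both on estimated fragments. Those of shares are approximate, as the FPKM share was applied to the summed fragments of a family.

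Differences are log2((OE + 1)/(WT + 1)), which understates low genes. Genes averaging 1 FPKM or more were compared at 2-fold, with no test within a line. For both lines together, log2(FPKM + 1) of all such genes went into limma 3.58.1 (R 4.3.3) with line as a block and a trended prior (two-sided, Benjamini-Hochberg). GC and length correction used natural splines of 5 degrees of freedom. Exons were called shared from 50 bases of overlap.

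All 10 genes and AVEN are named. From each list the 2 highest and 2 lowest genes per line, or all where at most 5 were measured, could be named. Genes and lists were chosen with earlier results of these data known. No column of another sample was used.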

Additional observations from a re-analysis of the deposited data

Results flagged for a closer look

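Genes are given here whose differences of OE and WT had opposite signs in the 2 lines and were at least 2-fold in one of them. For 5 of the 7 the smaller difference was within counting error, so an opposite direction is not shown for these. In HCT116 these folds were 0.959 for CDK4 (0.885 to 1.04), 0.957 for CDKN1A (0.903 to 1.01) and 1.18 for BMI1 (0.936 to 1.47). In RKO they were 1.05 for E2F6 (0.881 to 1.26) and 1.01 for RRM2 (0.894 to 1.14). CDK4 in HCT116 stood at 0.01 on the log2 scale after GC and length correction. Each value is the log2 difference in HCT116 minus that in RKO. With 1 library per group these gaps were not tested, and they are given as values. CCND3 had a gap of -1.43, from -1.12 in HCT116 and 0.32 in RKO. For CDK4 the gap was -1.42, from -0.06 and 1.36, and for its fellow cell cycle gene CDKN1A it was -1.79, from -0.06 and 1.73. The gap of MYC was -2.98, from -2.63 and 0.35, and that of BMI1 was 1.77, from 0.21 and -1.56. E2F6 had -1.21, from -1.14 and 0.06, and RRM2 had -1.24, from -1.23 and 0.01. Among 9887 genes measured in both lines, larger gaps were found in 0.303% for MYC and 3.66% for E2F6, which bound the shares of the other 5.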

How the results depend on the processing

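CCND3 in HCT116 and CDK4 in RKO remained the genes of the group past 2-fold with a pseudocount of 0.1, with no filter, after centring, quantile normalization or GC and length correction, and without mitochondrial genes. CCND3 ranged from -1.31 to -1.05 and CDK4 from 1.23 to 1.45. Of 120 values within lines, 5 changed sign, all of genes whose reported difference was between -0.07 and 0.07. Across lines none of the 10 genes passed limma under any of 7 alternatives, among them the fit with no replicate block, while all genes passing numbered 14 as reported, 7 with a pseudocount of 0.1, 0 with no filter or with no replicate block, 1 after quantile normalization or GC and length correction, 16 after centring and 14 with no trend in the prior. Genes past 2-fold numbered 232 in HCT116 (419 with a pseudocount of 0.1, 394 without mitochondrial genes) and 358 in RKO (629 with a pseudocount of 0.1). In RKO the split was 143 higher and 215 lower, 171 and 163 after centring, and 156 and 146 after quantile normalization. Leaving out a line leaves no residual degrees of freedom, so only the values within lines remain. The labels carry no replicate numbers, and line was the block.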
